A study of Rattus norvegicus with 12 samples.

Results

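The genes of apoptosis were examined in fibroblast-like synoviocytes (FLS), the lining cells of the joint, as 37 genes chosen by name: the BCL2 family, the caspases, their inhibitors and the death receptor proteins. Of the 37 genes, 33 were found by symbol among the 22442 gene records of the series, and Mcl1, Bbc3, Hrk and Birc2, for which no record carried the name, were not analysed here. All FLS were cultured from the synovium of male Sprague Dawley rats with adjuvant arthritis (AA), which had been induced by complete Freund's adjuvant in a hind paw, and were used at the third passage, so that the untreated control cells came from arthritic joints as well. The controls (FCA) were kept in plain DMEM. The taurine-conjugated bile acid taurochenodeoxycholic acid (TCDCA) was added for 12 h at 10 µM (1e-05 M) in the AT10 group, at 1 µM (1e-06 M) in AT1 and at 0.1 µM (1e-07 M) in AT01. Each of the 4 groups had 3 libraries of poly(A) RNA, which the study describes as repeats, and the sources used here do not say whether these came from separate rats or separate cultures. The p-values below therefore measure the spread between these libraries, which may be technical.

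Apoptosis is decided largely at the mitochondrial outer membrane. The effectors Bax and Bak1 permeabilise that membrane, the guardians of the BCL2 family hold them back, and BH3-only proteins such as Bid and Noxa (Pmaip1) release that hold or activate the effectors. Cytochrome c then assembles Apaf1 and caspase 9 into the apoptosome, while death receptors reach caspase 8 through the adaptor Fadd, and Cflar and the inhibitor of apoptosis proteins act as brakes. In the arthritic synovium, FLS are known to accumulate and to resist apoptosis. Of the 37 genes, 22 were grouped as pro-apoptotic, 9 as anti-apoptotic and 6 as neither, the last being the inflammatory caspases, the RIP kinases and the mitophagy receptor Bnip3l. Most of these proteins are controlled after translation, by cleavage, binding or release from mitochondria, which mRNA levels do not measure.

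Values are FPKM, fragments scaled to the length of the transcript and to the size of the library, and so can be compared between genes. Tests were run on log2(FPKM + 1), a scale that understates the difference of genes near 1 FPKM, with limma over the 11611 records that averaged 1 FPKM or more, and adjusted p-values are Benjamini-Hochberg values over all of these. Of the 33 genes found, 30 passed this filter, 18 of them pro-apoptotic, 6 anti-apoptotic and 6 neither. Of 9 markers of synovial fibroblasts, 9 were above 1 FPKM in every library, with sums of 6372 to 7072 FPKM in FCA, 5750 to 6136 in AT01, 6329 to 6411 in AT1 and 4824 to 6488 in AT10. Among 7 macrophage markers, Cd14 (3.6 to 18.82 FPKM) and Cd68 (1.66 to 2.91 FPKM) reached 1 FPKM on average, whereas Csf1r stayed at or under 0.26 FPKM and Adgre1 at or under 0.03 FPKM. The 4 T cell and 5 endothelial markers all averaged under 1 FPKM, and Cd3e and Cd3d were listed at 0 throughout. Over all records, the FPKM sum of a library was 284210 at the lowest and 309696 at the highest. As these are bulk libraries, fewer cells of a type and less RNA per cell cannot be told apart.

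The promoters of Pmaip1 and Bid are shown as examples of genes whose mRNA separated AT10 from FCA in the tests below. Casp12 separated as well and is not shown. Motifs of cAMP and glucocorticoid receptor signalling were searched because TCDCA was studied for its action on them, and the GC box was searched as well. Both promoters come from RefSeq for the rat build GRCr8. They run from 250 bases before to 50 bases after the annotated start, 5′ to 3′ on the strand of the gene. Capitals in the Pmaip1 sequence (chr18:62255720-62256019, plus strand) mark the 2 matches to TGACG, the half-site of the cAMP response element, which lie on the opposite strand and read CGTCA. Capitals in the Bid sequence (chr4:155808270-155808569, minus strand) mark the 3 matches to GGGCGG, the GC box. The marked motif thus differs between the promoters, and no link between a motif and the mRNA levels was tested.
Pmaip1: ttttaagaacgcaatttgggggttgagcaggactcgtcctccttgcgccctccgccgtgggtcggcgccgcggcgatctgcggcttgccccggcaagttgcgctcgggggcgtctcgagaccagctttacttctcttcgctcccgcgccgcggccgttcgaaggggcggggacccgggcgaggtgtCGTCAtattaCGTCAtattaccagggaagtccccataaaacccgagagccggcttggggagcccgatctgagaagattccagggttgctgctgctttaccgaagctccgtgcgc
Bid: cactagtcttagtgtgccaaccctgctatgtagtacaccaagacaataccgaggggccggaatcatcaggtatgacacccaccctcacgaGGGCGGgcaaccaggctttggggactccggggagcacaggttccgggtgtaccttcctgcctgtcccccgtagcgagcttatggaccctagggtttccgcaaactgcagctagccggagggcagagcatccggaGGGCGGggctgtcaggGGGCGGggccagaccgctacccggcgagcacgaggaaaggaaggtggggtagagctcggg

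The half-sites in the Pmaip1 promoter began at positions -64 and -54 relative to the start, and the GC boxes in the Bid promoter at positions -160, -26 and -10. A GC box also lay in the Pmaip1 promoter, at position -87, and is not in capitals there. TGACG was not found in the Bid promoter. Searched on both strands without regard to overlap, TGACG was found in 21.2% of all 33469 promoters and in 7 of the 26 listed genes that had an entry. GGGCGG was found in 33.1% of all promoters and in 19 of the 26. AGAACA, the half-site of the glucocorticoid response element, was found in 20.7% of all promoters, in 1 of the 26 and in neither promoter shown. The percentages are shares of promoters, whereas a listed gene was counted if any of its promoters matched. They are therefore unlike measures and were not tested against each other. A match is a description of the letters and not a binding site. Tnfrsf10b had no entry.

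The expression of the 33 genes spanned the range from not detected to abundant. The 9 most abundant genes averaged 10 FPKM or more, 21 lay between 1 and 10 FPKM and 3 lay under 1 FPKM. The median of the 33 mean levels was 3.0 FPKM, against 6.51 FPKM over all tested records. The effector Bax was the most abundant, at 36.29 to 58.36 FPKM over the 12 libraries, followed by the necroptosis kinase Ripk3 at 26.29 to 33.28 FPKM. Among the guardians, Bcl2l1, which encodes BCL-XL, was the most abundant at 10.64 to 24.92 FPKM. Bcl2l2, which encodes BCL-W, lay at 1.33 to 4.04 FPKM, and Bcl2 itself at 0 to 0.37 FPKM.

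**Figure D1:**
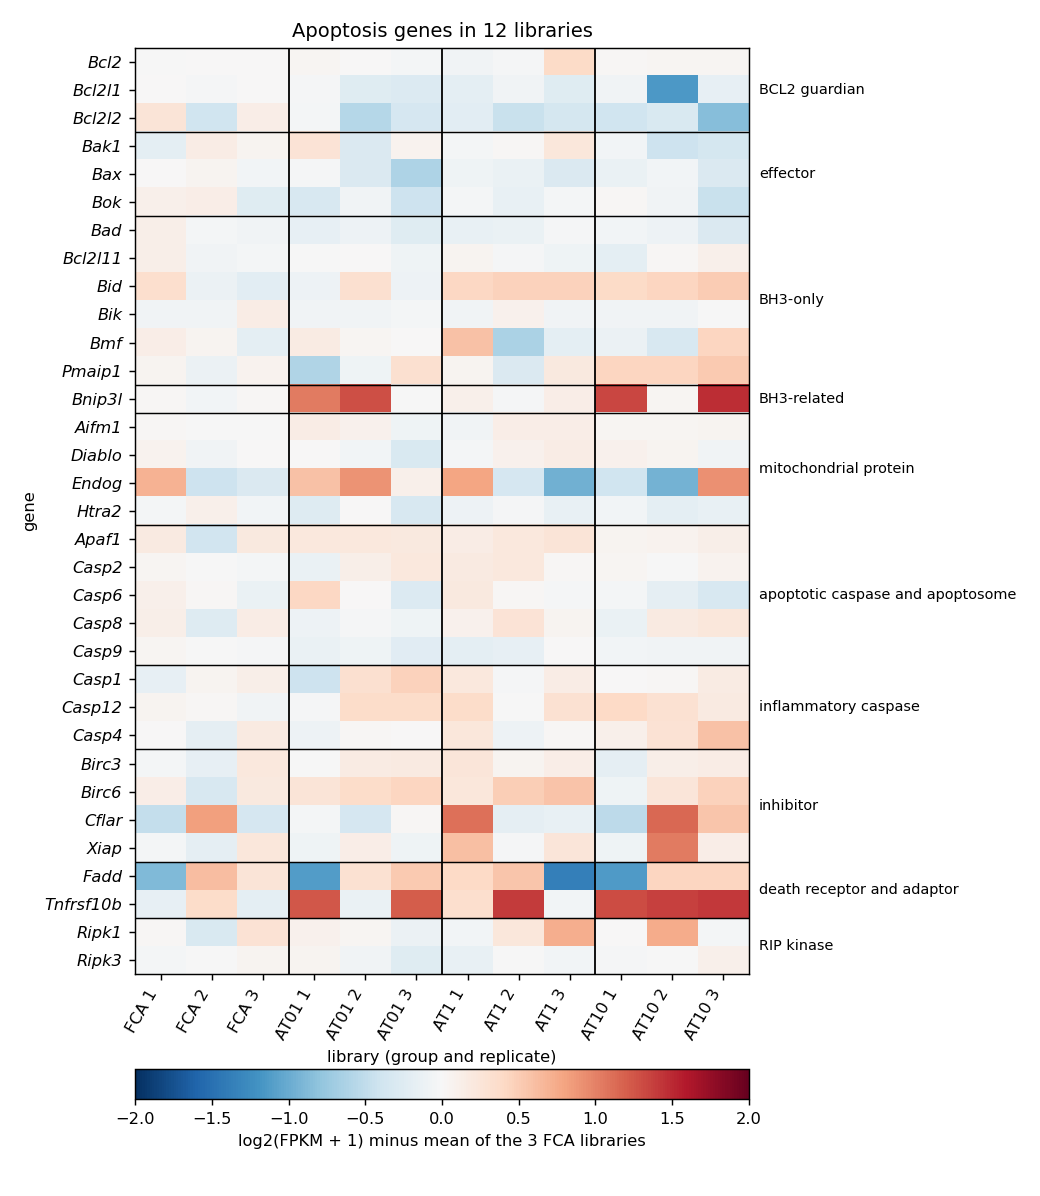
Heat map of the 33 genes found (rows, grouped by role) in the 12 libraries (columns), coloured by log2(FPKM + 1) minus the mean of the 3 FCA libraries, with red above and blue below FCA. The Tnfrsf10b row is red in all 3 AT10 libraries, whereas rows such as Fadd, Bnip3l and Endog differ between libraries of the same group.

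No member passed an adjusted p under 0.05 in any of the 7 comparisons. The share of all tested records that did so was 0.172% for AT10, 0.0947% for AT1 and 0.0947% for AT01, each against FCA, and 0.0258% for the 9 TCDCA libraries together against FCA. Between doses it was 0.258% for AT10 against AT1, 0.0689% for AT10 against AT01 and 0.129% for AT1 against AT01. At an unadjusted p under 0.05, limma found 4 members higher and 0 lower in AT10, 1 higher and 1 lower in AT1, and 0 in AT01, each against FCA. The 3 doses share the same 3 FCA libraries, so these counts are not independent of one another.

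The comparison of AT10 with FCA asks what the highest dose of TCDCA did to these genes. The 4 members with an unadjusted p under 0.05 were the death receptor Tnfrsf10b, the BH3-only genes Pmaip1 and Bid, and the inflammatory caspase Casp12. They were 13.3% of the 30 tested members, against 7.54% of all tested records that were higher at this p, and the 0 members that were lower stand against 4.34%. In each of the 4 genes all AT10 libraries lay above all FCA libraries, and the exact two-sided permutation test gave its smallest possible p for 3 against 3 libraries, 0.1. Across the 30 tested members, 6 did not overlap with AT10 higher (10.7% of all records did so), the 4 named and Bnip3l and Aifm1, and 3 did not overlap with AT10 lower (9.18% of all records), namely Bcl2l1, Bax and Casp9. As shares of the 30 tested members these were 20.0% in the higher direction and 10.0% in the lower, the last near its background. The first was not tested against its background of 10.7%, and the genes were chosen with earlier results of these data known. Beside these values, the macrophage markers summed to 6.74 to 22.1 FPKM in FCA and 18.5 to 21.5 FPKM in AT10, mostly Cd14 (means of 14.0 and 17.1 FPKM) and Cd68 (means of 2.24 and 2.22 FPKM), with Csf1r and Adgre1 near 0 in both groups. Their part in these results was not tested.

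Tnfrsf10b, which encodes the TRAIL receptor DR5, was at 0.78, 1.57 and 0.74 FPKM in the FCA libraries and at 3.94, 4.15 and 4.34 FPKM in the AT10 libraries. The study required a log2 fold change beyond 1 in size together with an unadjusted p under 0.05, both from the Ballgown package. Here these thresholds were applied to the limma fit of log2(FPKM + 1) instead. Tnfrsf10b was the only member to meet them, as did 0.706% of all records. Its log2 fold change was 1.36 (SE 0.17, limma, unadjusted p = 0.000258, adjusted p = 0.0842). Without FCA replicate 2, the highest of the controls, the adjusted p was 0.0177, and with any other library left out it did not fall under 0.05. At the lower doses the receptor was uneven, at 1.53, 4.25 and 0.93 FPKM in AT1 and at 3.71, 0.82 and 3.63 FPKM in AT01. The high libraries of both groups were close to the AT10 level, and the low ones were within the FCA range. Against FCA its log2 fold change was 0.56 in AT1 (SE 0.40, adjusted p = 0.595) and 0.77 in AT01 (SE 0.41, adjusted p = 0.762), and neither had an unadjusted p under 0.05. Without AT01 replicate 2, the low library of that group, the log2 fold change in AT01 was 1.23 (limma, unadjusted p = 0.00249, adjusted p = 0.348), and without AT1 replicate 2, the high library of its group, that in AT1 was 0.15. Its ligand Tnfsf10, which encodes TRAIL, lay between 0 and 0.03 FPKM.

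Pmaip1, which encodes the BH3-only protein Noxa, was at 12.02, 10.58 and 12.21 FPKM in FCA and at 15.91, 15.87 and 17.07 FPKM in AT10. This was a log2 fold change of 0.46 (SE 0.08, limma, unadjusted p = 0.00126, adjusted p = 0.133). The AT1 libraries, at 12.08, 9.29 and 13.35 FPKM, and the AT01 libraries, at 7.33, 10.9 and 14.66 FPKM, overlapped with FCA, and AT10 lay above all of them. Between doses the log2 difference was 0.47 for AT10 against AT1 (SE 0.13, unadjusted p = 0.0135, adjusted p = 0.702) and 0.58 for AT10 against AT01 (SE 0.23, unadjusted p = 0.0468, adjusted p = 0.867). The last of these was 0.34 without AT01 replicate 1, the lowest library, and 0.80 without AT01 replicate 3, the highest, and its unadjusted p was over 0.05 in 8 of 14 alternatives.

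Bid, the BH3-only protein that caspase 8 cleaves to link death receptors to mitochondria, was at 3.79, 2.49 and 2.28 FPKM in FCA. It was at 3.97, 4.12 and 4.39 FPKM in AT10 and at 4.07, 4.23 and 4.25 FPKM in AT1, so that all 6 libraries of the higher doses lay above all controls. In AT01 it was at 2.56, 3.76 and 2.55 FPKM, within the FCA range. Against FCA this gave a log2 fold change of 0.44 for AT10 (SE 0.16, limma, unadjusted p = 0.0333, adjusted p = 0.381) and of 0.45 for AT1 (SE 0.16, unadjusted p = 0.0302, adjusted p = 0.428). Bid was also higher than in AT01, by 0.40 in AT10 (SE 0.14, unadjusted p = 0.0308, adjusted p = 0.867) and by 0.40 in AT1 (SE 0.14, unadjusted p = 0.0263, adjusted p = 1) on the log2 scale. FCA replicate 1, at 3.79 FPKM, was the control closest to the treated libraries. With 1 library left out, the log2 fold change of Bid in AT10 ran from 0.33 without FCA replicate 3 to 0.61 without FCA replicate 1, and in AT1 from 0.34 to 0.62 without the same libraries. An unadjusted p under 0.05 was lost in 7 of 13 alternatives in AT10 and in 7 of 13 in AT1, among them every left-out library but FCA replicate 1.

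Casp12, a caspase of the inflammatory group that has been linked to stress of the endoplasmic reticulum, was at 1.17, 1.12 and 0.99 FPKM in FCA and at 1.77, 1.57 and 1.38 FPKM in AT10. AT10 was higher by 0.30 on the log2 scale (SE 0.10, limma, unadjusted p = 0.0249, adjusted p = 0.352). In AT1 it was at 1.71, 1.09 and 1.59 FPKM and in AT01 at 1.06, 1.69 and 1.69 FPKM, with 1 library of each group inside the FCA range. Casp12 neighbours Casp1 and Casp4 in RefSeq, and since records are assembled loci, the split of reads among the 3 is uncertain.

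**Figure D2:**
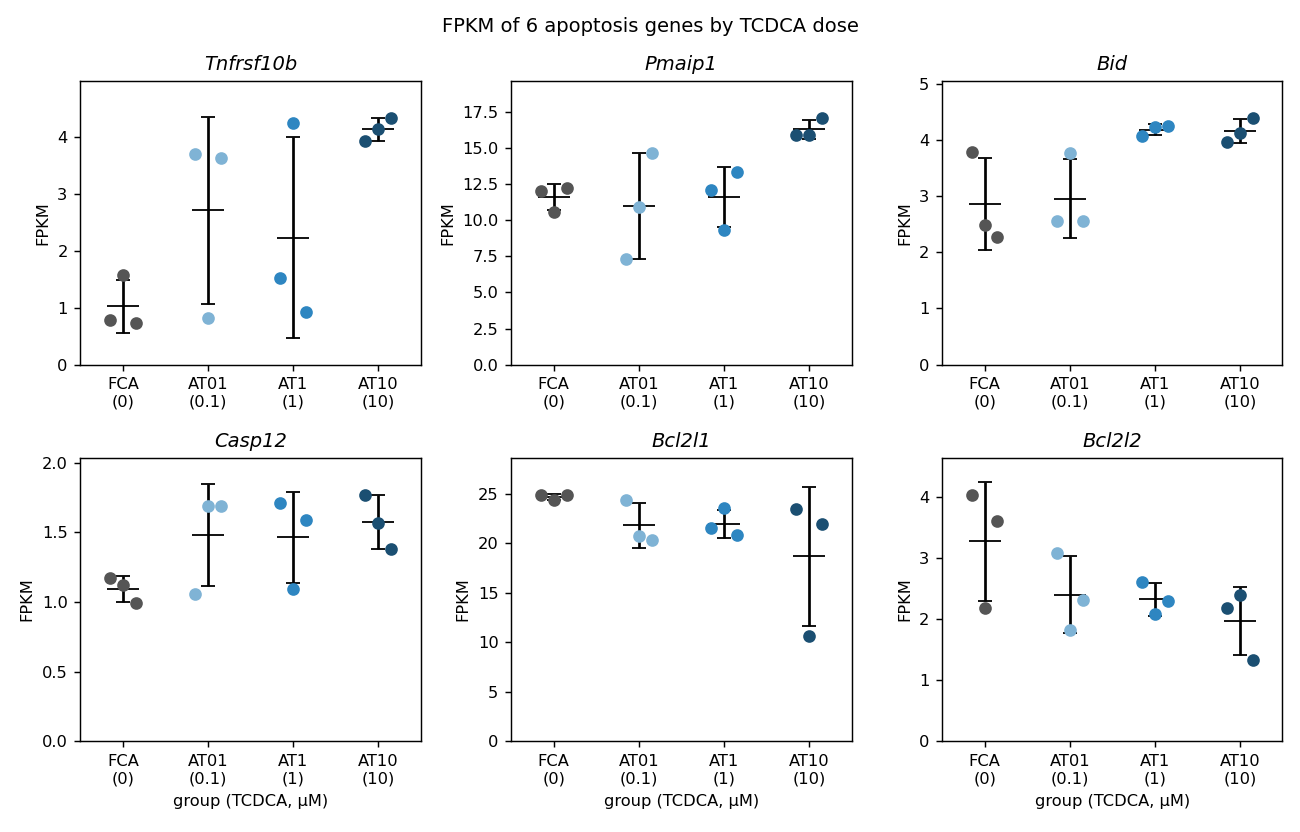
FPKM of Tnfrsf10b, Pmaip1, Bid, Casp12, Bcl2l1 and Bcl2l2 by group, with TCDCA in µM in parentheses under each group. Each point is 1 library, the horizontal bar is the mean of 3 and the error bar the SD. The AT10 points of the first 4 genes sit above all FCA points, and the Bcl2l1 points of AT10 sit beneath them, with 1 library at 10.64 FPKM.

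Among the guardians, Bcl2l1 and Bcl2l2 averaged lower in AT10 than in FCA without passing the test. Bcl2l1 was at 24.85, 24.34 and 24.92 FPKM in FCA and at 23.47, 10.64 and 21.98 FPKM in AT10. All AT10 libraries were lower than all FCA libraries, and the log2 fold change was -0.46 (SE 0.29, adjusted p = 0.559). Without AT10 replicate 2, at 10.64 FPKM, it was -0.12 (adjusted p = 0.619). In AT1, at 21.52, 23.56 and 20.83 FPKM, the gene was again beneath all FCA libraries, with a log2 fold change of -0.16 (SE 0.06, limma, unadjusted p = 0.0457, adjusted p = 0.447). In AT01, at 24.39, 20.75 and 20.29 FPKM, it overlapped with FCA. Bcl2l2 was at 4.04, 2.18 and 3.61 FPKM in FCA, 3.08, 1.82 and 2.31 in AT01, 2.61, 2.08 and 2.29 in AT1 and 2.19, 2.39 and 1.33 in AT10. Its group means were 3.28, 2.40, 2.33 and 1.97 FPKM in the order of dose, and it was the 1 tested member whose means were ordered downward with dose, as were those of 4.89% of all tested records. No tested member had means ordered upward, as 7.65% of all tested records did. FCA replicate 2 lay among the treated libraries, and the log2 fold change in AT10 was -0.52 (SE 0.23, adjusted p = 0.445). Bcl2 was under the filter and was not tested.

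Of the effectors, Bax was at 56.45, 58.36 and 54.26 FPKM in FCA and at 51.2, 54.04 and 45.78 FPKM in AT10. It was at 53.09, 51.35 and 46.12 FPKM in AT1 and at 55.55, 46.1 and 36.29 FPKM in AT01. Thus 8 of 9 TCDCA libraries lay beneath all controls, with log2 fold changes of -0.16 in AT10 (SE 0.08, adjusted p = 0.468), -0.17 in AT1 (SE 0.07, adjusted p = 0.453) and -0.31 in AT01 (SE 0.16, adjusted p = 0.742). Bak1 was at 8.01, 10.46 and 9.8 FPKM in FCA, 8.96, 6.8 and 7.14 in AT10, 9.14, 9.49 and 11.18 in AT1 and 11.6, 7.49 and 9.88 in AT01. Only AT10 and AT1 were separated, with a log2 difference of -0.34 (SE 0.13, limma, unadjusted p = 0.036, adjusted p = 0.748). Bok, a relative of Bax and Bak1, lay at 7.7 to 11.95 FPKM with all groups overlapping.

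The ratio of Bax to Bcl2l1, often used as a measure of the balance at the membrane, was 2.28 ± 0.11 (SD, n = 3) in FCA, 2.10 ± 0.27 in AT01, 2.29 ± 0.16 in AT1 and 3.11 ± 1.70 in AT10. The AT10 mean was set by replicate 2, in which the ratio was 5.079 with Bcl2l1 at 10.64 FPKM, and the lowest AT10 library, at 2.083, was beneath the lowest FCA library, at 2.177. The remaining AT10 library was at 2.182, within the FCA range of 2.177 to 2.398.

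Neither of the remaining tested BH3-only genes, Bad and Bcl2l11, had an unadjusted p under 0.05 in limma in any of the 7 comparisons. Bad lay at 9.65 to 13.14 FPKM, and its AT01 libraries, at 10.68, 11.19 and 10.02 FPKM, were beneath the FCA libraries at 13.14, 11.7 and 11.38 FPKM (log2 fold change -0.17, SE 0.09, adjusted p = 0.742). Bcl2l11, which encodes BIM, lay at 1.33 to 1.88 FPKM. Bmf, at 0.14 to 1.65 FPKM, and Bik, at 0 to 0.17 FPKM and listed at 0 in 8 libraries, were under the filter and not tested.

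Of the caspases and the apoptosome, Casp2, Casp6, Casp8 and Casp9 lay at 1.78 to 2.55, 1.49 to 3.12, 1.88 to 3.17 and 2.61 to 3.35 FPKM. The initiator Casp9 was beneath all FCA libraries in all 3 AT10 and all 3 AT01 libraries, though by little: the group means were 3.23 FPKM in FCA, 3.03 in AT10 and 2.83 in AT01. Casp2, Casp6 and Casp8 had no comparison with an unadjusted p under 0.05. Apaf1, the scaffold of the apoptosome, was at 1.4 FPKM in FCA replicate 2 and at 2.25 to 2.71 FPKM in the other libraries. The inflammatory caspases Casp1 and Casp4, which process cytokines and open gasdermin pores, lay at 0.88 to 2.46 and 1.29 to 2.9 FPKM. The highest Casp4 value was in AT10 replicate 3.

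The mitochondrial proteins that act after membrane permeabilisation varied by less than 1 on the log2 scale, apart from Endog. Diablo and Htra2, which relieve the inhibitor of apoptosis proteins, lay at 13.47 to 18.71 and 21.5 to 29.23 FPKM, and Aifm1, a flavoprotein that can move to the nucleus, at 18.69 to 22.05 FPKM. The Aifm1 libraries of AT10, at 20.41 to 20.63 FPKM, were all above FCA, at 19.66 to 20.21 FPKM, but the log2 fold change was 0.04 (SE 0.05, adjusted p = 0.725). Endog, an endonuclease, was at 4.55, 1.57 and 1.81 FPKM in FCA, 1.6, 0.78 and 5.42 in AT10, 4.9, 1.71 and 0.75 in AT1 and 4.14, 5.37 and 2.67 in AT01. High and low libraries occurred in FCA, AT10 and AT1 alike.

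Among the inhibitors, Cflar and Xiap were uneven between libraries, and Birc3 was not. Cflar, which encodes the caspase 8 inhibitor cFLIP, was at 3.34, 9.61 and 3.77 FPKM in FCA, 3.21, 12.4 and 7.82 in AT10, 12, 4.32 and 4.42 in AT1 and 4.88, 3.79 and 5.15 in AT01. Values over 7 FPKM were thus present in 1 library of FCA, 2 of AT10 and 1 of AT1. Cflar neighbours Casp8 in RefSeq, and another record of the same name averaged 0.343 FPKM. Xiap, which binds caspases directly, lay at 0.96 to 2.38 FPKM except for 3.58 FPKM in AT10 replicate 2. Birc3, which encodes cIAP2, lay at 4.01 to 5.69 FPKM with all groups overlapping. Its neighbour in RefSeq is Birc2, which was not analysed here, so the reads of these near-copies may not be separated. Birc6, a large ubiquitin ligase, was at 3.43, 2.24 and 3.61 FPKM in FCA, 2.82, 3.76 and 4.57 in AT10, 3.71, 4.69 and 5 in AT1 and 3.84, 4.22 and 4.44 in AT01. Its AT1 and AT01 libraries were all above FCA, with log2 fold changes of 0.43 (SE 0.17, adjusted p = 0.453) and 0.35 (SE 0.16, adjusted p = 0.72).

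Fadd, the adaptor that joins death receptors to caspase 8, was the 1 tested member that fell into 2 separate levels, set apart by 1 or more on the log2 scale and by more than the width of either level. It was at 0.81, 4.13 and 2.97 FPKM in FCA, 0.52, 3.48 and 3.5 in AT10, 3.39, 3.9 and 0.29 in AT1 and 0.53, 3.13 and 3.76 in AT01. Each group held 1 low library and a pair of high ones. Such levels were found in 4.52% of all tested records. The cutoff of 1 left out members with a slightly narrower gap. In Tnfrsf10b the widest gap was 0.85, between 6 libraries up to 1.57 FPKM and 6 from 3.63 FPKM. In Bnip3l it was 0.91, between 8 libraries up to 9.37 FPKM and 4 from 18.44 FPKM.

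Bnip3l, which encodes the mitophagy receptor NIX, was at 8.55, 8.12 and 8.63 FPKM in FCA and at 9.08, 8.24 and 9.37 FPKM in AT1. It was at 22.9, 8.65 and 25.22 FPKM in AT10 and at 18.44, 22.05 and 8.42 FPKM in AT01. The high values were thus in 2 of 3 libraries of AT10 and of AT01, and the other library of each lay at the FCA level. It differed from FCA on the log2 scale by 0.95 in AT10 (SE 0.39, adjusted p = 0.426) and 0.78 in AT01 (SE 0.34, adjusted p = 0.72), and neither passed. Without AT10 replicate 2, the low library, the adjusted p was 0.0248 against FCA (log2 fold change 1.41) and 0.0255 against AT1 (log2 difference 1.34). Without AT01 replicate 3, the low library there, it was 0.0758 against FCA.

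Ripk1, the kinase at the branch between survival, apoptosis and necroptosis, was at 2.5 to 4.29 FPKM in FCA. It was at 3.38, 6.23 and 3.22 FPKM in AT10, 3.19, 4.09 and 6.2 in AT1 and 3.63, 3.46 and 3 in AT01, with 1 high library in AT10 and 1 in AT1. Another record named Ripk1 averaged 0.883 FPKM. Ripk3 varied little, with group means of 31.1 FPKM in FCA and 31.7 FPKM in AT10.

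**Figure D3:**
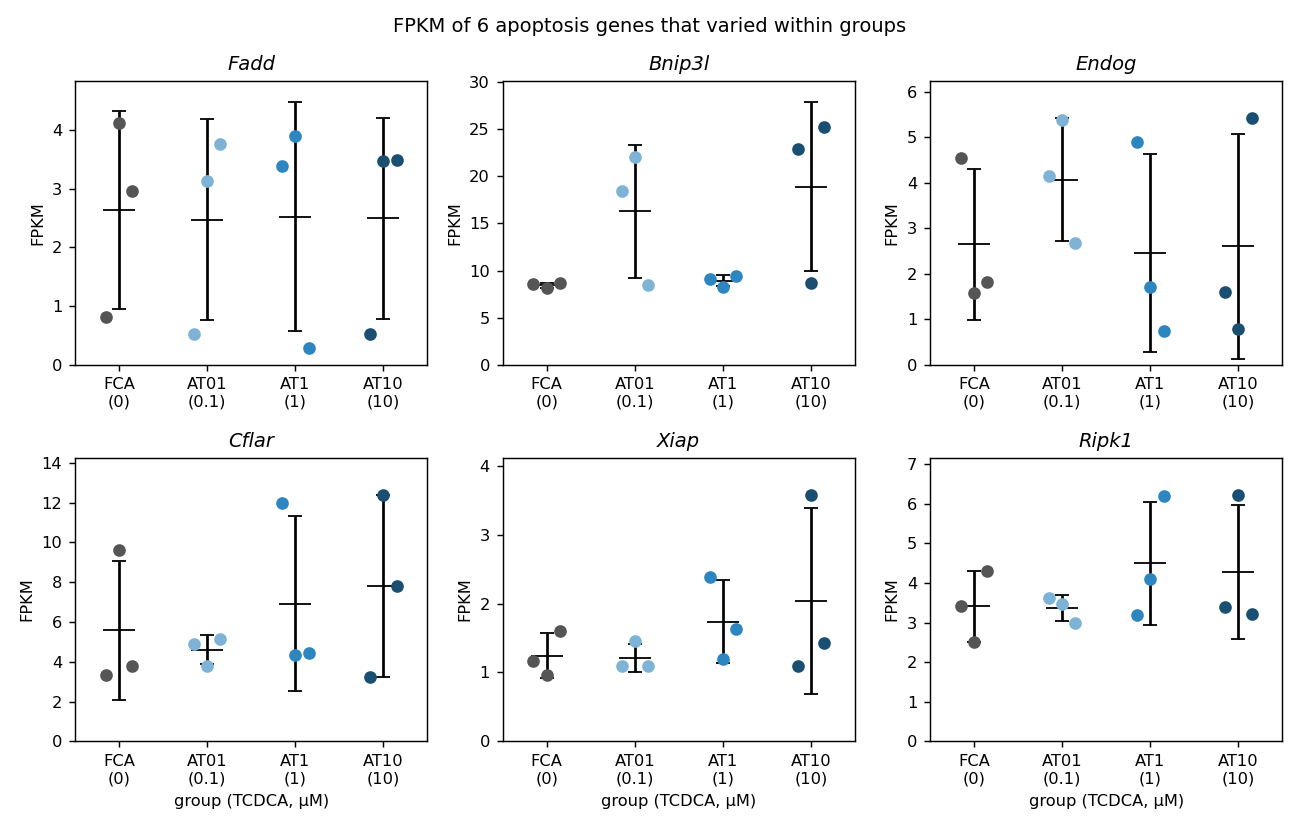
FPKM of Fadd, Bnip3l, Endog, Cflar, Xiap and Ripk1 by group, with TCDCA in µM in parentheses. Points are libraries, bars the mean of 3 and error bars the SD. Fadd has 1 low library in every group, and Bnip3l has 2 high libraries each in AT01 and AT10 and none in FCA or AT1.

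The spread of these genes over the 12 libraries is given beside that of all records, with no test of a difference. Values ranged over more than 1 on the log2 scale in 10 of the 30 tested members (33.3%), against 24.6% of tested records. The median SD within groups was 0.189 for the members and 0.169 for all tested records. AT10 replicate 3 was the highest library for 7 of the 30 tested members, against 12.3% of all tested records. FCA replicate 2 was the lowest for 7 of the 30, against 14% of records. Both shares of the members were above those of all records, and the difference was not tested.

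In AT1 against FCA, the 1 member that was higher at an unadjusted p under 0.05, Bid, stands against 5.56% of all tested records, and the 1 that was lower, Bcl2l1, against 5.44%. Without overlap were 2 members with AT1 higher, Bid and Birc6 (9.87% of records), and 2 with AT1 lower, Bcl2l1 and Bax (10% of records). In AT01 against FCA, 0 members stand against 2.57% of records that were higher and 4.03% that were lower. Without overlap were 1 member with AT01 higher, Birc6 (5.97% of records), and 2 with AT01 lower, Bad and Casp9 (8.06% of records). At these lower doses the shares of the 30 tested members, from 0% to 6.67%, were near the backgrounds.

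With the 9 TCDCA libraries pooled, 3 members were higher at an unadjusted p under 0.05 (5.86% of all tested records were), and 1 was lower (6.15% of records). These 4 overlapped with FCA and are named after their values were seen. Tnfrsf10b was above all FCA libraries in 6 of 9 TCDCA libraries (log2 fold change 0.90, SE 0.37, adjusted p = 0.377), Casp12 in 7 of 9 (0.25, SE 0.10, adjusted p = 0.38) and Birc6 in 8 of 9 (0.33, SE 0.14, adjusted p = 0.38). Bcl2l2 was beneath all FCA libraries in 3 of 9 (log2 fold change -0.39, SE 0.16, adjusted p = 0.38).

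Between doses, AT10 against AT1 had 1 member higher, Pmaip1 (2.72% of records), and 1 lower, Bak1 (3.74% of records), at an unadjusted p under 0.05. AT10 against AT01 had 2 members higher, Pmaip1 and Bid (2.14% of records), and 0 lower (2.82% of records). AT1 against AT01 had 1 member higher, Bid (1.72% of records), and 0 lower (1.71% of records). Without overlap, AT10 lay above AT01 in 5 of the 30 tested members (16.7%, against 4.64% of records), namely Tnfrsf10b, Pmaip1, Bid, Casp4 and Casp9, and beneath it in 1, Apaf1 (6.47% of records). For Tnfrsf10b the 3 AT10 libraries started at 3.94 FPKM and the highest AT01 library was at 3.71 FPKM, with a log2 difference of 0.59 (SE 0.38, adjusted p = 0.867). Casp4 differed by 0.34 (SE 0.15, adjusted p = 0.867) and Casp9 by 0.08 (SE 0.08, adjusted p = 0.879). For Casp9 the lowest AT10 library was at 3.01 FPKM and the highest AT01 library at 3.0 FPKM. The share of 16.7% was not tested against its background of 4.64%. AT10 lay above AT1 in 1 member, Pmaip1 (5.7% of records), and beneath it in 3, Bak1, Casp6 and Apaf1 (8.16% of records). AT1 lay above AT01 in 2 members, Bid and Casp8 (4.86% of records), and beneath it in 0 (3.75% of records).

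Pro- and anti-apoptotic genes were compared by the medians of their log2 fold changes. In AT10 the median was -0.04 over the 18 pro-apoptotic genes, of which 8 were higher and 10 lower than in FCA, and 0.12 over the 6 anti-apoptotic genes, of which 4 were higher. The median over all tested records was -0.01. In AT1 the medians were 0.02 and 0.20 (all records 0.02), and in AT01 -0.05 and -0.06 (all records 0.00). With the 9 TCDCA libraries together they were -0.01 and 0.14 (all records 0.00). The 6 genes on neither side had medians of 0.27, 0.09 and 0.06 in AT10, AT1 and AT01. The sign of the anti-apoptotic median in AT10 and AT1 depended on the genes kept, since with a mean of at least 10 FPKM only Bcl2l1 was left, at -0.46 and -0.16, the first of which rests on AT10 replicate 2 as above. Single libraries turned the sign as well: in AT10 the pro-apoptotic median was 0.0455 without FCA replicate 1 and 0.0142 without AT10 replicate 1, and the anti-apoptotic one was -0.0055 without FCA replicate 2 and -0.0013 without AT10 replicate 2. The medians hid opposite members on each side: in AT10 the pro-apoptotic values ran from -0.27 for Bak1 to 1.36 for Tnfrsf10b, and the anti-apoptotic values from -0.52 for Bcl2l2 to 0.39 for Cflar.

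**Figure D4:**
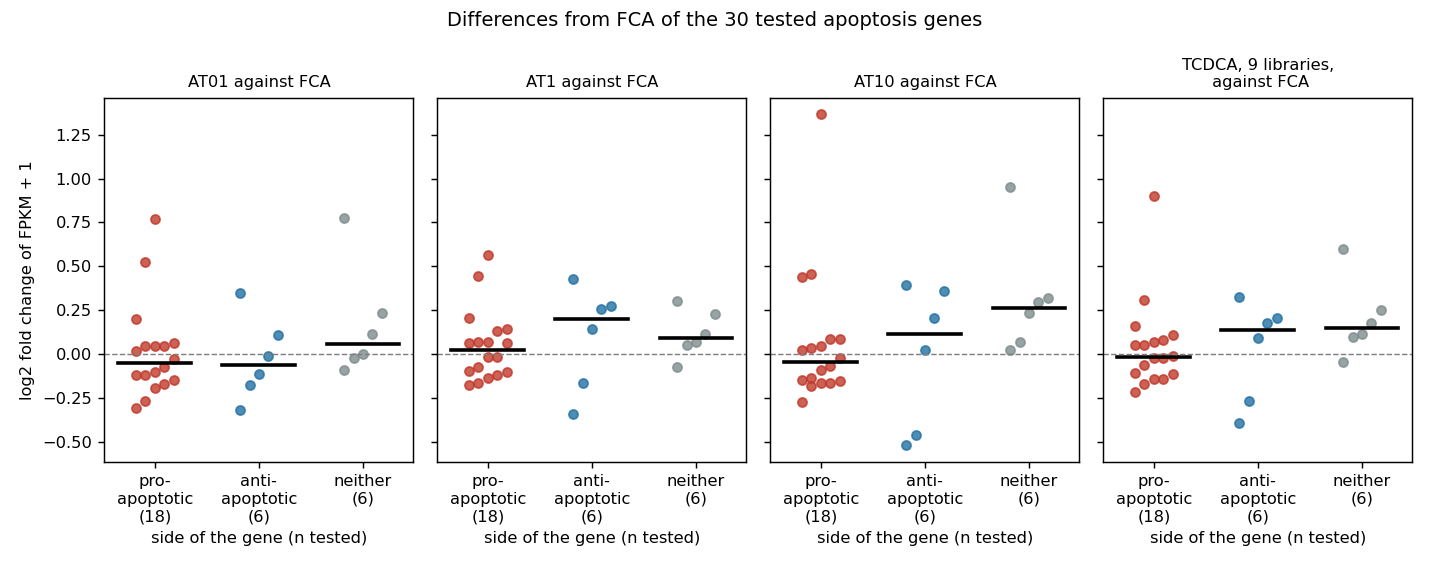
Log2 fold change of FPKM + 1 against FCA for the 30 tested genes, by side, in AT01, AT1, AT10 and the 9 TCDCA libraries together. Each point is 1 gene and the black bar is the median of its side. In AT10 the median is -0.04 for pro-apoptotic and 0.12 for anti-apoptotic genes, with Tnfrsf10b alone at 1.36.

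A further 30 genes of the pathway, listed for this purpose, were examined in the same way, and 24 of them passed the filter. An adjusted p under 0.05 was reached by 1 of them, Bnip3, in 2 comparisons, AT01 against FCA (0 higher, 1 lower) and AT1 against AT01 (1 higher, 0 lower), and by none in the other 5. Over the 24, the median log2 fold change against FCA was -0.05 for AT10, -0.02 for AT1 and 0.01 for AT01. Cycs, which encodes cytochrome c, was listed at 0 in 11 libraries and at 38.5 FPKM in AT01 replicate 3, so that its level cannot be read from this record.

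Bnip3, a mitophagy receptor and the closest relative of Bnip3l, was at 43.57, 41.44 and 41.23 FPKM in FCA and at 24.36, 23.79 and 24.19 FPKM in AT01. It was lower in AT01 than in FCA by 0.78 on the log2 scale (SE 0.06, limma, adjusted p = 0.0252). At the higher doses it was at 47.35, 42.23 and 43.54 FPKM in AT1 and 47.83, 50.23 and 33.83 FPKM in AT10, which overlapped with FCA. It was higher in AT1 than in AT01 by 0.85 (SE 0.07, adjusted p = 0.0267) and in AT10 than in AT01 by 0.82 (SE 0.16, adjusted p = 0.586). With any 1 of the libraries left out, the adjusted p of AT01 against FCA was between 0.054 and 0.0911, and that of AT1 against AT01 between 0.0584 and 0.109, over the threshold in each case. The differences themselves stayed near their full values, between -0.79 and -0.75 for AT01 against FCA and between 0.81 and 0.89 for AT1 against AT01. In AT01, Bnip3 was low in all 3 libraries, and Bnip3l was high in 2 of them.

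Bcl2l13, a BCL2-like mitophagy receptor whose record carries the number just before that of Bid, was at 1.18, 1.55 and 1.9 FPKM in FCA and at 3.17, 2.21 and 2.32 FPKM in AT10. It was at 2.47, 1.81 and 2.66 FPKM in AT1 and at 1.97, 2.71 and 2.81 FPKM in AT01. The log2 fold change was 0.49 in AT10 (SE 0.16, limma, unadjusted p = 0.0227, adjusted p = 0.346) and 0.46 in AT01 (SE 0.16, unadjusted p = 0.0278, adjusted p = 0.72). Fas, the death receptor of Fas ligand, was lower in AT10 than in AT01 by a log2 difference of -0.43 (SE 0.17, limma, unadjusted p = 0.0488, adjusted p = 0.867). Birc5, which encodes survivin, was lower in AT1 than in AT01 by -0.25 (SE 0.09, limma, unadjusted p = 0.0345, adjusted p = 1).

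**Figure D5:**
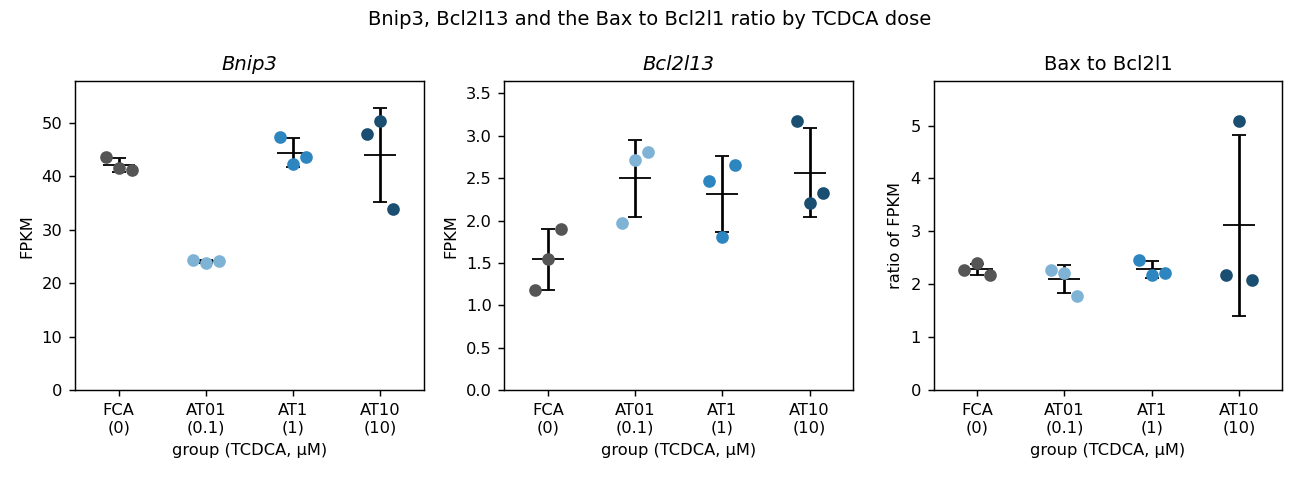
FPKM of Bnip3 and Bcl2l13 and the ratio of the FPKM of Bax to that of Bcl2l1, by group, with TCDCA in µM in parentheses. Points are libraries, bars the mean of 3 and error bars the SD. The AT01 libraries of Bnip3 sit between 23.79 and 24.36 FPKM, beneath all others, and 1 AT10 library has a Bax to Bcl2l1 ratio of 5.079.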

How the data were processed

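Poly(A) RNA of cultured FLS was sequenced in 12 libraries, 3 in each of the groups FCA, AT10, AT1 and AT01, as the labels group them. Reads were aligned with HISAT2 and transcripts assembled and quantified with StringTie by the authors, who deposited FPKM to 2 decimals. The genome build, the strand setting and any scaling between libraries are not given in the sources used here. The paper lists the reads of each library, which differed in number between libraries. Read counts per record were not used here, so the reads behind a single value are unknown and no counting interval is given.

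The 37 genes and the further 30 were chosen with earlier results of these data known. The values of some of the further genes are not reported here. Records were matched by symbol, the record of highest mean being used where a name occurred more than once. The 11611 of 22442 records that averaged 1 FPKM or more were fitted as log2(FPKM + 1) with limma 3.58.1 in R 4.3.3 (lmFit, eBayes with trend), using the libraries of the compared groups, and all 12 libraries for TCDCA against FCA. P-values were adjusted over all records by Benjamini and Hochberg. Statistics were given for members with an unadjusted p under 0.05 and no overlap between groups, or an adjusted p under 0.05, and otherwise beside values described. Two-sided exact permutation tests were run in R as well. Promoter searches and figures used Python 3.11.15, NumPy 2.4.6, pandas 2.3.3 and Matplotlib 3.10.9. The fit was tested on simulated data.

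Alternatives were leaving out each library in turn, a pseudocount of 0.1, a filter at 10 FPKM or none, the replicate number as a block, summing FPKM over records of 1 name, a single fit to all libraries, scaling by the median of ratios, and a Ballgown-style F test.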

Additional observations from a re-analysis of the deposited data

Results flagged for a closer look

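The level of Bnip3 differed between the libraries of 2 TCDCA doses, and the cause was not tested. The difference itself was tested with limma: the log2 level in AT1 was 0.85 above that in AT01 (SE 0.07, adjusted p = 0.0267), with all 3 AT1 libraries above all 3 AT01 libraries. With 1 library left out the adjusted p was between 0.0584 and 0.109, while the log2 difference stayed between 0.81 and 0.89. No group had 4 or more libraries, so no library was examined as an outlier of its group.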

How the results depend on the processing

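Of 258 summary values under an alternative, 38 moved. The share of all records called was not computed under the alternatives. The counts of members in this section therefore have no background to be read against. With a mean of at least 10 FPKM the members with an unadjusted p under 0.05 were 1 in AT10, 1 in AT1, 0 in the 9 TCDCA libraries and 1 between doses, since fewer members were tested. The pro-apoptotic medians were then -0.0541 in AT1, -0.1437 in AT01 and -0.0742 over the 9 libraries, and the anti-apoptotic ones, from Bcl2l1 alone, -0.46 in AT10, -0.16 in AT1 and -0.27 over the 9. The F test gave 1 member in AT1, 2 over the 9 libraries and 6 between doses, and the fit over all 12 libraries gave 1 in AT01. The AT1 member of the F test was Bok, with a log2 fold change of 0.22 in that fit. Its mean was nonetheless lower in AT1, at 10.25 FPKM, than in FCA, at 10.92 FPKM. Bid and Bcl2l1, which limma called in AT1, were not called there by the F test.

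With the replicate block, 0 members in AT1 and 1 in AT01 had an unadjusted p under 0.05. The deviations of same-numbered libraries correlated between -0.11 and 0.09 over 18 pairs, 0 of them over 0.1. Pairs with different numbers reached -0.15 and 0.15. The study describes the replicate numbers as sets of repeated studies and does not say what the libraries of a set shared. Correlations this small cannot settle whether the numbers pair the libraries, so the pairing remains unknown.

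With each library left out, the members with an unadjusted p under 0.05 were 2 to 5 in AT10, 0 to 3 in AT1, 1 to 4 in AT01 (Bcl2l1, Bax, Casp1 and Casp12 without AT01 replicate 1), 2 to 6 over the 9 libraries and 2 to 7 between doses (7 without AT10 replicate 1). An adjusted p under 0.05 was reached by 0 or 1 members in AT10 (Tnfrsf10b without FCA replicate 2, Bnip3l without AT10 replicate 2) and by 0 or 1 between doses (Bnip3l without AT10 replicate 2). The pro-apoptotic medians lay between -0.0657 and 0.0455 in AT10, -0.0245 and 0.0582 in AT1, -0.0953 and -0.0172 in AT01 and -0.0356 and 0.0342 over the 9 libraries, and the anti-apoptotic median in AT1 between -0.0252 and 0.2913. The cause of these moves was not tested.

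Of 242 values of the named tests under alternatives, 166 stayed on the same side of an unadjusted p of 0.05, 76 no longer passed and 0 reversed. Tnfrsf10b in AT10 passed in all 13 of its alternatives, with log2 fold changes of 1.27 to 1.98 and adjusted p of 0.0177 to 0.399. Pmaip1 in AT10 passed in all 14 (0.40 to 0.49, adjusted p 0.118 to 0.459). Bid in AT10 passed in 6 of 13, Casp12 in AT10 in 9 of 13, and Bcl2l1 in AT1 in 6 of 14. Bnip3 in AT01 had an adjusted p of 0.0126 to 0.469, under 0.05 in 5 of 14. With 3 libraries in a group and no counts per record, the counting error of the genes near 1 FPKM is unknown.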
